A study of Papio anubis with 25 samples.

Results

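CYP2C8, a gene of the cytochrome P450 family, was followed across 5 tissues of 5 olive baboons (Papio anubis). Rows whose symbol begins with CYP and a digit were to be taken as P450 genes, and 1 of the 21287 rows of the table, CYP2C8, met that rule. The values below therefore describe this gene and not the family, and other P450 genes, including the copies named only by LOC numbers, were not analysed here. CYP7A1, CYP2E1 and CYP8B1, the markers listed for the family, are among those other genes, so the liver label was checked with hepatocyte genes of other families.

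The 25 bulk RNA libraries came from flash-frozen liver, pancreas, parotid gland, submandibular gland and sublingual gland, with 1 library per tissue and animal. Of the animals, 4 were female (baboons 1 to 4) and 1 was male (baboon 5), so sex could not be tested. The labels give no age, strain or treatment. The salivary glands were left glands. The series was built to compare amylase expression between salivary glands, pancreas and liver of Old World monkeys.

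P450 enzymes are haem proteins that insert an atom of oxygen into fatty acids, steroids and foreign compounds, with electrons delivered by a reductase in the same membrane. Most drug-metabolising members sit in the endoplasmic reticulum of hepatocytes. CYP2C8 belongs to the 2C subfamily, and in human the enzyme hydroxylates paclitaxel and other drugs and converts arachidonic acid to epoxides. Its transcription in hepatocytes is known to depend on HNF4A and on the drug-sensing receptors PXR (gene NR1I2) and CAR (gene NR1I3).

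CYP2C8 was highest in liver in all 5 animals. In liver it was at 992, 1158, 1030, 756 and 390 TPM in baboons 1 to 5, a mean of 865 ± 303 TPM (SD, n = 5). TPM is a transcript abundance relative to the library total and corrected for transcript length. The gene ranked between 109 and 223 among the 21287 genes of its liver library, and 1 liver, that of baboon 5, lay well under the other 4.

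Pancreas came second and was far below liver. Its values were 28.8, 26.0, 41.8, 14.3 and 6.49 TPM in baboons 1 to 5, a mean of 23.5 ± 13.6 TPM (SD, n = 5). The lowest liver was above the highest pancreas, so the tissues did not overlap. Baboon 5 was the lowest of the 5 animals in both organs.

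The salivary glands held the least. The sublingual gland was at 4.01, 6.04, 18.0, 6.28 and 5.99 TPM in baboons 1 to 5, a mean of 8.07 ± 5.64 TPM (SD, n = 5). The library of baboon 3 stood above the other 4, which lay close together. In parotid the 5 values were 13.9, 4.35, 8.49, 4.2 and 2.32 TPM, a mean of 6.64 ± 4.62 TPM (SD, n = 5).

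In the submandibular gland the 5 values were 4.34, 6.94, 4.34, 0.846 and 2.75 TPM, a mean of 3.84 ± 2.25 TPM (SD, n = 5). The values of the 3 glands overlapped one another. They also overlapped the range of the pancreas, whose lowest library, that of baboon 5, lay under several gland libraries. The plot of levels by tissue shows the gap between liver and the rest and the overlap among the other 4 tissues.

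**Figure D1:**
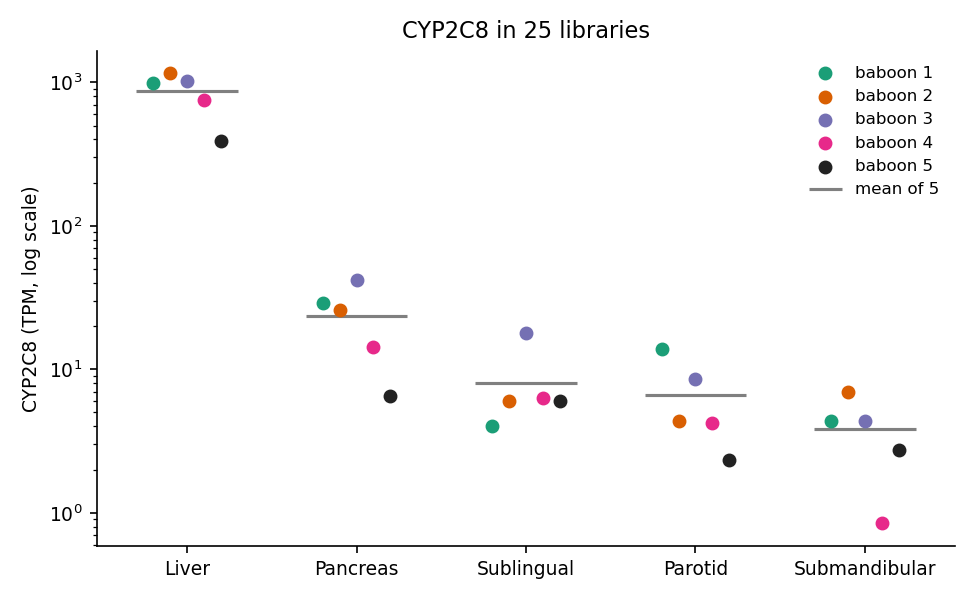
CYP2C8 in TPM on a log axis for each tissue, with 1 point per library coloured by baboon and a grey line at the mean of 5 animals. All 5 livers (390 to 1158 TPM) lie above every other library, the highest of which is a pancreas at 41.8 TPM.

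Liver exceeded pancreas in the same animal by between 24.6 and 60.1 times, with a median of 44.6. In a limma fit over 14991 genes with tissue and animal as terms, the log2 fold change of liver against pancreas on the log2(TPM + 1) scale was 5.28 (SE 0.42, Benjamini-Hochberg adjusted p = 6.47e-10). Calls required an adjusted p below 0.05 together with a log2 fold change of 1 or more in either direction. By that rule 14.6% of all genes tested were called higher in liver than in pancreas. As a description of size, 1.16% of the genes tested had a higher log2 fold change than CYP2C8.

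Against the equally weighted mean of the 3 glands the log2 fold change of liver was 7.04 (SE 0.35, limma adjusted p = 4.49e-14), and 13.2% of all genes were called higher in liver there. Of the genes tested, 0.24% had a higher value. The 2 comparisons share the liver libraries. Liver exceeded sublingual gland by a median of 120 times within animals, parotid by 168 times and submandibular gland by 228 times, and the direction held in 5 of 5 animals for each.

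Within animals, each of the 3 glands held less CYP2C8 than the pancreas, in 5 of 5 animals. Hepatocyte genes were also found in these tissues, as given below, and the part of liver-derived transcripts in these differences was not tested. For submandibular gland the log2 fold change against pancreas was -2.26 (SE 0.42, limma adjusted p = 0.00133), where 2.81% of all genes were called lower. For parotid it was -1.65 (SE 0.42, limma adjusted p = 0.0241), where 2.4% were called lower. For sublingual gland it was -1.37 (SE 0.42, limma adjusted p = 0.0439), where 2.49% were called lower.

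The call held under the limma alternatives for submandibular gland and was lost under several for the other 2 glands. Without the replicate block the adjusted p was 0.0903 for parotid and 0.0945 for sublingual gland. Leaving out baboon 2, 3 or 4 ended the parotid call (adjusted p = 0.0829, 0.238 and 0.0781), and leaving out baboon 1, 2, 3 or 4 ended the sublingual call (adjusted p = 0.245, 0.059, 0.148 and 0.105). Pancreas exceeded sublingual gland by a median of 2.32 times within animals and by 1.08 times in baboon 5, the smallest ratio of the 5 animals.

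Between glands no difference was called. Parotid against submandibular gland had a log2 fold change of 0.61 (95% interval -0.27 to 1.49, limma adjusted p = 1), and 0% of all genes were called in that comparison. Of the 14991 genes tested, 254 had an unadjusted limma p under 0.05, fewer than would be expected if no gene differed. Parotid against sublingual gland gave -0.28 (95% interval -1.16 to 0.6, limma adjusted p = 0.896, with 0.113% of genes called), and the sign turned with TMM scaling to 0.12 and with median-of-ratios scaling to 0.06. Submandibular against sublingual gland gave -0.89 (95% interval -1.77 to -0.01, limma adjusted p = 0.35, with 0.0667% of genes called). These intervals leave room for differences of more than 1 on the log2 scale, so the glands were not shown to be alike. The order of the means was liver, pancreas, sublingual, parotid and submandibular gland. The order of sublingual and parotid turned without baboon 3 (5.58 against 6.18 TPM) and with TMM scaling (6.42 against 9.97 TPM). Of the neighbours in this order, sublingual with parotid and parotid with submandibular gland were not called different. Pancreas and sublingual gland overlapped, with 3 of 5 pancreas libraries above the highest sublingual one, and their call was lost under several alternatives.

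**Figure D2:**
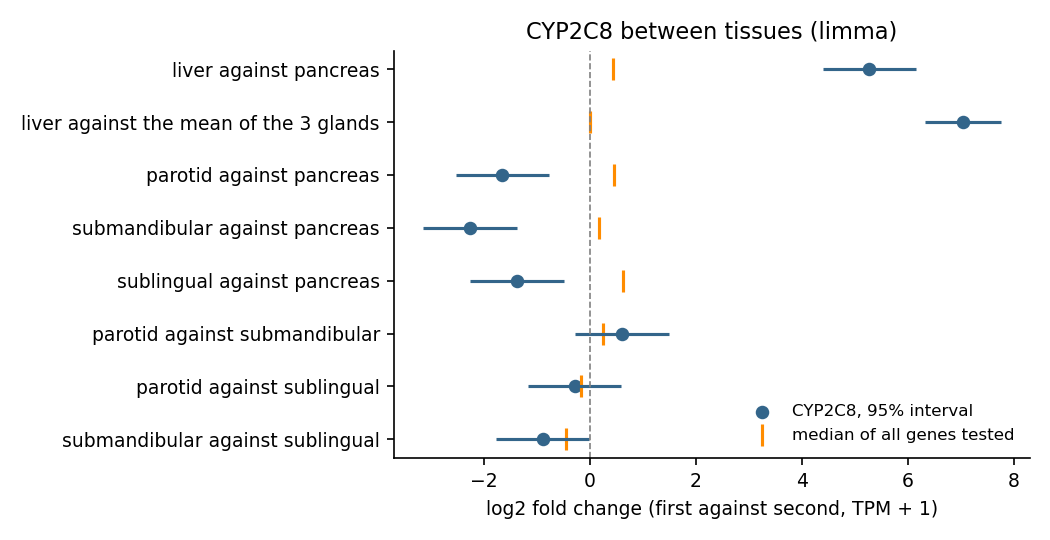
Log2 fold change of CYP2C8 on the log2(TPM + 1) scale in 8 tissue comparisons (first tissue against second), with 95% intervals from limma, and the median of all 14991 genes tested as an orange tick. Both liver comparisons lie above 5, the 3 gland against pancreas comparisons lie below 0, and the intervals of the first 2 comparisons between glands cross 0.

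In 7 gland libraries markers of fat, lymphoid tissue, muscle or stratified mucosa stood out. The 4 fat markers (ADIPOQ, PLIN1, LEP and CIDEC) summed to 4848 TPM in the parotid library of baboon 2. The lymphoid markers CD79A, CD3E and MS4A1 summed to 675 TPM in the parotid library of baboon 5. The fat markers summed to 343 and 1156 TPM in the submandibular libraries of baboons 2 and 5. In sublingual gland, 4 muscle markers summed to 62925 TPM in baboon 2, and 4 markers of stratified mucosa summed to 108702 and 47405 TPM in baboons 1 and 4. Without these 7 libraries, a choice made after seeing the data, submandibular against pancreas was -2.72 (limma adjusted p = 9.8e-06), parotid against pancreas was -1.46 (adjusted p = 0.00284) and sublingual against pancreas was -0.55 (adjusted p = 0.206). Submandibular against sublingual gland then became a called difference of -2.17 (limma adjusted p = 0.00167). In that fit 5881 of the 14081 genes tested were called, 0.85% of them higher in submandibular gland. The median log2 fold change over all genes was -0.97, so the call was not particular to CYP2C8. That comparison had 3 submandibular and 2 sublingual libraries left. One of those 2 was the sublingual library of baboon 3, the highest of its gland. That library was not set apart, though markers of pancreas were also highest there among the sublingual libraries. Its acinar enzyme genes summed to 1346 TPM and its islet hormone genes to 519 TPM.

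Genes used here as hepatocyte markers were also found outside liver, at low levels in each of the other 4 tissues. The list held ALB (serum albumin), APOA1 and APOC3 (apolipoproteins), TTR (a thyroid hormone carrier), SERPINA1 (a protease inhibitor) and FGB (a fibrinogen chain), and all 6 were measured. Their sum was 49315 to 84811 TPM in liver, 611 to 1049 TPM in pancreas, 379 to 1251 TPM in sublingual gland, 225 to 611 TPM in parotid and 148 to 507 TPM in submandibular gland. None of the 6 was at 0 in any library. CYP2C8 and each of the 6 were therefore expressed as a percentage of the level in the liver of the same animal. Markers of other tissues were found in liver and pancreas too. The salivary genes AQP5, ZG16B, PIP and BPIFA2 summed to 847 to 3941 TPM in liver and 1401 to 3665 TPM in pancreas. The pancreatic acinar genes CPA1, CPB1, CELA3B and CTRB2 summed to 506 to 930 TPM in liver. The source of these transcripts was not tested.

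In pancreas CYP2C8 was at 2.9%, 2.24%, 4.06%, 1.89% and 1.66% of the liver level in baboons 1 to 5. The median of the 6 hepatocyte genes was 0.93%, 0.722%, 1.11%, 1.33% and 0.928% in the same libraries. CYP2C8 was above that median in 5 of 5 pancreas libraries, by between 1.43 and 3.67 times, and above each of the 6 genes in 3 of 5. The exceptions were baboons 1 and 5, where TTR was at 4.52% and 6.18%. The islet hormone genes INS, GCG and IAPP summed to 5917, 575, 4870, 746 and 13769 TPM in the pancreas libraries of baboons 1 to 5, and TTR was at 2.38% in baboon 3, below CYP2C8. The part of islet cells in the TTR values was not tested.

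In the glands CYP2C8 lay among the hepatocyte genes in most libraries. In sublingual gland it was at 0.405% to 1.75% of liver, between 0.662 and 1.2 times the median of the 6 genes. SERPINA1 was the highest of the 6 in each sublingual library, at 3.06% and 6.69% in baboons 1 and 4. For CYP2C8 the values in the submandibular gland follow. In submandibular gland CYP2C8 was at 0.112% to 0.706%, between 0.448 and 1.47 times that median. It was above each of the 6 genes in 1 library, that of baboon 1 (0.438% against a highest of 0.4%). It was above the median in 3 of 5 sublingual and 2 of 5 submandibular libraries.

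In parotid CYP2C8 was above each of the 6 genes in 2 of 5 libraries and below each of them in that of baboon 2. In the library of baboon 1 it was at 1.4% of liver against a median of 0.325% for the hepatocyte genes, 4.3 times as much. In that of baboon 4 it was at 0.555% against a highest hepatocyte gene of 0.528%. In the other 4 parotid libraries it was at 0.376% to 0.824%, between 0.604 and 1.26 times the median. The part of liver-derived transcripts in the values outside liver was not tested.

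**Figure D3:**
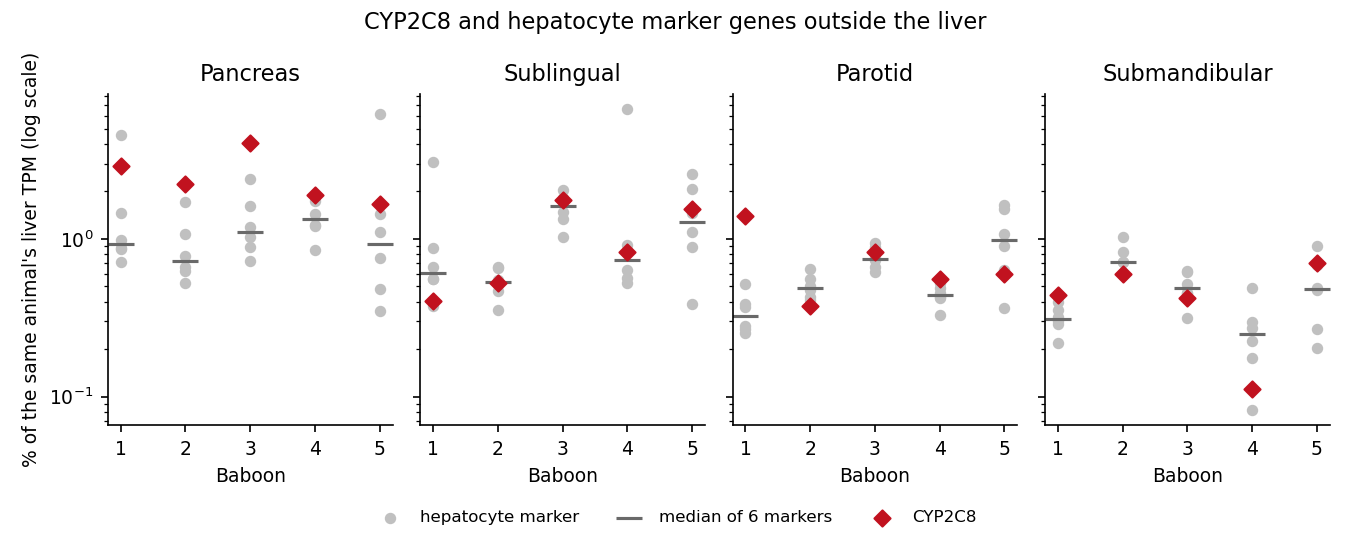
Level as a percentage of the liver of the same baboon (log axis) in pancreas and 3 salivary glands, for CYP2C8 (red diamonds), 6 hepatocyte genes (grey points) and their median (dark bars). CYP2C8 is above the median in all 5 pancreas libraries and lies among the hepatocyte genes in most gland libraries, with parotid of baboon 1 as the clearest exception at 1.4%.

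CYP2C8 was also set beside a wider group of 405 liver genes. These were the genes called higher in liver than in pancreas and than in the mean of the glands, which had a liver mean of at least 100 TPM and were above 0 in every liver. The typical gene of this set, taken by its median over animals, was at 3.39% of liver in pancreas, and CYP2C8 was at 2.24%, above 43.2% of the set. In sublingual gland CYP2C8 was at 0.831% against 3.57% for the set, in parotid at 0.595% against 2.19%, and in submandibular gland at 0.438% against 1.79%. The set was chosen for being higher in liver than in these tissues, so its levels there were limited by the choice. CYP2C8 is itself a member of the set, which also includes genes that other tissues express.

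Among the livers, CYP2C8 varied by 2.97 times from lowest to highest, a coefficient of variation of 35.0%. Over the 4740 genes with a liver mean of at least 10 TPM the median coefficient of variation was 28.3%, and 66.4% of them varied less than CYP2C8. The liver of baboon 5 held CYP2C8 at 39.7% of the mean of baboons 1 to 4. The median of the 4740 genes was 71.1% there, and 17.8% of them were lower than CYP2C8 by this measure.

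Several hepatocyte genes were also low in that liver. ALB was at 34684, 31060, 38464, 31506 and 14278 TPM in baboons 1 to 5, so that baboon 5 held 42.1% of the mean of the others. FGB was at 28.5%, SERPINA1 at 55.0%, APOC3 at 68.7% and TTR at 75.9%, while APOA1 was at 149%. Relative to ALB, CYP2C8 was at 2.86%, 3.73%, 2.68%, 2.4% and 2.73% in the 5 livers, and baboon 5 lay within the range of the others. That depended on the gene chosen: relative to APOA1, APOC3, TTR and SERPINA1 baboon 5 lay below the range of the other 4 livers, and relative to FGB above it. Relative to APOA1, CYP2C8 was at 2.43% in baboon 5 against 7.3% to 12.4% in the others, and relative to FGB at 39.5% against 24.6% to 31.7%. In bulk tissue fewer cells of a type and less RNA per cell cannot be told apart, and with 1 male animal neither can sex and the single animal.

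**Figure D4:**
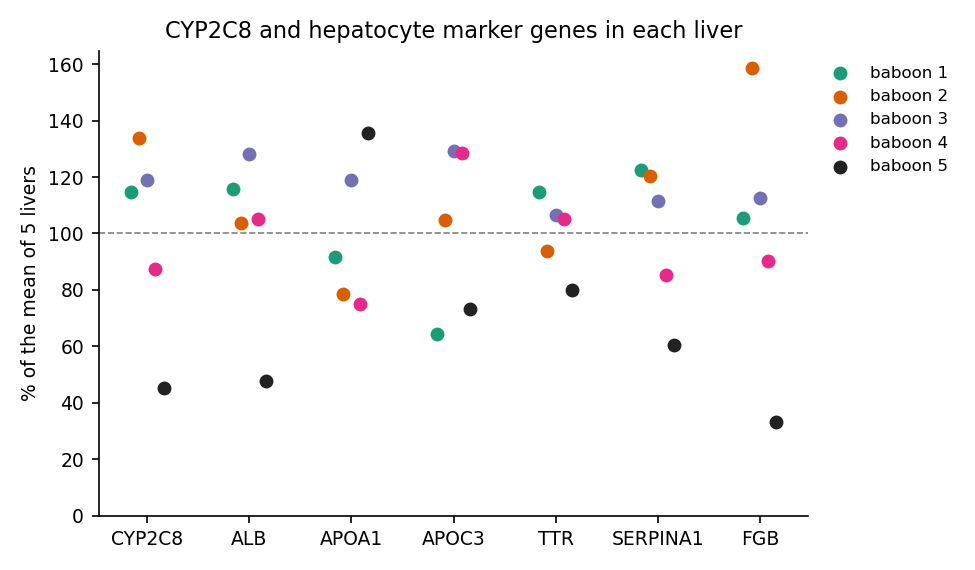
TPM in each liver as a percentage of the mean of the 5 livers (dashed line at 100) for CYP2C8 and 6 hepatocyte genes, with 1 point per baboon. Baboon 5 is lowest for CYP2C8, ALB, TTR, SERPINA1 and FGB and highest for APOA1.

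Of 16 genes listed as regulators of P450 expression and bile acid synthesis, 15 were in the table and 14 passed the filter on low values (a tissue mean of 1 TPM or more). Of the 14, 10 were called higher in liver than in pancreas, 1 lower and 3 neither, where 14.6% of all genes were called higher and 2.86% lower, with a median log2 fold change of 2.08 against 0.44 over all genes tested. NR1I3 (CAR) was at 88.6, 99.7, 126, 104 and 93.8 TPM in the livers of baboons 1 to 5 and did not exceed 1.23 TPM in any pancreas, and its log2 fold change was 5.84 (SE 0.34, limma adjusted p = 3.23e-12). NR1I2 (PXR) was at 40.1, 27.0, 19.1, 39.9 and 18.5 TPM in liver and at 0.788 to 2.21 TPM in pancreas.

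HNF4A, a hepatocyte transcription factor, was at 48.9, 46.6, 23.8, 47.1 and 26.3 TPM in liver and at 0.61 to 2.3 TPM in pancreas. The log2 fold change of liver against pancreas was 3.94 for HNF4A and 3.61 for NR1I2 (limma adjusted p = 7.53e-11 and 1.03e-09). NR1H4, the bile acid receptor, rose by 3.45 (limma adjusted p = 2.94e-11). HNF4A was among the lower livers in baboon 5, but it was lowest in baboon 3, whose CYP2C8 was high, so the order of the livers differed between the genes.

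NR5A2, a nuclear receptor of liver and of pancreatic acinar cells, was the 1 regulator of the 14 called lower in liver, and it is named here after its values were seen. It was at 3.53, 4.64, 2.84, 2.53 and 1.38 TPM in liver and at 8.6, 7.79, 9.35, 13.8 and 5.32 TPM in pancreas, with no overlap between the organs. Its log2 fold change was -1.33 (SE 0.34, limma adjusted p = 0.0066). Among the fits run, the count of regulators called lower fell to 0 with a pseudocount of 0.1 and without baboon 3 or 4. Against the mean of the glands, 10 of the 14 regulators were called higher in liver and 0 lower, where 13.2% of all genes were called higher and 5% lower, with a median log2 fold change of 2.9 against 0 over all genes.

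The haem group of every P450 enzyme is made by a pathway of 8 enzymes, and all 8 genes were tested. Of these, 5 were called higher in liver than in pancreas and 0 lower, where 14.6% of all genes were called higher and 2.86% lower, with a median log2 fold change of 1.68 against 0.44 over all genes. ALAS1, the rate-limiting first enzyme, was at 37.9, 151, 90.9, 48.7 and 148 TPM in the livers of baboons 1 to 5 and at 2.41 to 3.65 TPM in pancreas. Its log2 fold change was 4.41 (SE 0.41, limma adjusted p = 7.26e-09).

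ALAS1 was high in the liver of baboon 5, where CYP2C8 was lowest. ALAD, the next enzyme, rose by 2.8 in liver against pancreas, CPOX by 2.14 and UROS by 2.06 (limma adjusted p = 0.000362, 0.00409 and 0.00163). Against the mean of the glands 3 of the 8 were called higher in liver and 0 lower, where 13.2% of all genes were called higher and 5% lower, with a median of 0.97 against 0, and the value for ALAS1 was 3.41 (SE 0.33, adjusted p = 1.61e-08 in limma). That count was 6 without the 7 gland libraries named above and 6 without baboon 2, and it was 2 without baboon 3 and 2 without baboon 4. The calls over all genes, in either direction, moved the same way. They were 4628 of 14081 without the 7 libraries and 3124 of 14718 without baboon 2. Without baboon 3 or 4 they were 1869 of 15065 and 2022 of 15164, against 2727 of 14991 in the main fit. The count of 5 against pancreas was 4 under 7 of the 14 alternatives and 5 under the others.

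**Figure D5:**
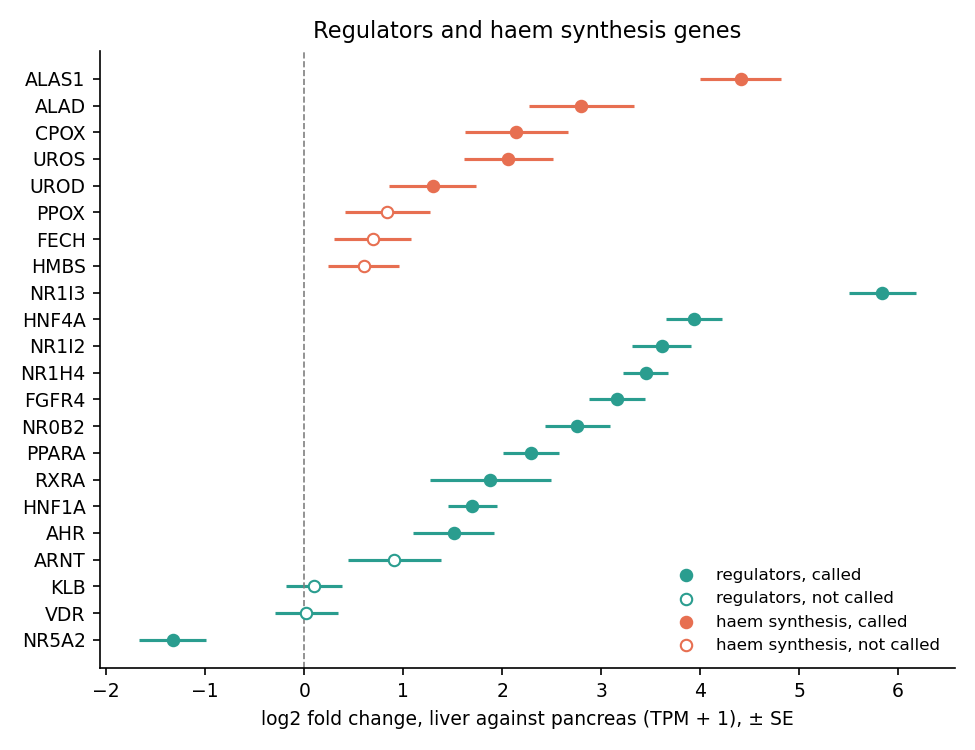
Log2 fold change of liver against pancreas on the log2(TPM + 1) scale, with standard errors from limma, for 14 regulators and 8 haem synthesis genes, where filled points were called. NR1I3 (5.84) and ALAS1 (4.41) lead their lists, and NR5A2 (-1.33) is the called gene below 0.

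The genes whose levels followed CYP2C8 most closely over all 25 libraries were liver genes. This choice was made after the data were seen. By Pearson's r of log2(TPM + 1) among 6161 genes with symbols other than LOC numbers and a tissue mean of 10 TPM or more, the nearest were HAO2, a peroxisomal oxidase (r = 0.9795), TFR2, an iron-sensing receptor of hepatocytes (r = 0.9775), NR1H4 (r = 0.9724), HPX, the haem-binding plasma protein (r = 0.9709), and APOC2, an apolipoprotein (r = 0.9707). HAO2 was at 175 ± 73.3 TPM in liver and 5.01 ± 3.71 TPM in pancreas (SD, n = 5 each), and its gland means were 0.726 to 1.59 TPM. Such a correlation includes the gap between liver and the other tissues, and 261 genes had an r above 0.9. Correlations within a tissue were not computed, so these values do not show that the genes vary together there.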

How the data were processed

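The authors deposited TPM per gene in 25 libraries, and the file's name gives kallisto as their source. Kallisto, cutadapt, HISAT2 and featureCounts are among the tools in the submitters' processing notes, and the version, index, build and annotation are not given in the sources used here. Columns summed to between 999999.5 and 1000000.6 TPM, and TPM keeps no depth, so no counting error is given and precision rests on 5 animals. Reads shared with near-identical 2C copies, or with the transcribed pseudogene LOC101024353 that overlaps CYP2C8 in the Panubis1.0 gene table, could be divided or misassigned, so the level is uncertain to that extent. The pseudogene has no row among the deposited values, so no division of reads with it can be seen here.

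Limma 3.58.1 in R 4.3.3 (moderated with an intensity trend) was run on log2(TPM + 1) of the 25 libraries, with terms for tissue and for animal. The 14991 genes whose mean reached 1 TPM in some tissue were tested, and Benjamini-Hochberg adjustment ran over all of them within a comparison. The same animals gave all tissues, so animal is the replicate block, and the mean correlation of deviations was 0.161 between libraries of the same animal and -0.035 otherwise. The fit was tested on simulated data. These had no animal effect and the same spread in every tissue, so that test does not bear on unequal spread between tissues. TMM factors, computed on the TPM values, were used for scaling alone. Exact tests on the 10 tissue pairs and the 7 libraries set apart were added after the data were seen. Plans for counts of P450 genes and their sums reduced to the values of CYP2C8. Other genes were named as the called members of each list with the largest log2 fold change, at most 4, unless stated. The gene and lists were chosen with earlier results of these data known. Python 3.11.15 with pandas 2.3.3, scipy 1.17.1 and matplotlib 3.10.9 was used. One planned lymphoid marker is not reported here.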

Additional observations from a re-analysis of the deposited data

Results flagged for a closer look

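The sublingual library of baboon 3, at 18.0 TPM of CYP2C8, stood apart from the other 4 sublingual libraries, with a gap to its nearest neighbour of 0.838 of the whole range against a critical value of 0.71. About 1 in 20 groups passes that limit by chance, and 5 tissues were examined. ALB was also highest there among the sublingual libraries, at 572 TPM against 170 to 208 TPM, and so were the summed acinar enzyme genes CPA1, CPB1, CELA3B and CTRB2 (1346 TPM against 311 to 647 TPM) and the islet hormone genes (519 TPM against 17.5 to 52.9 TPM). The part of those transcripts in the CYP2C8 value was not tested.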

How the results depend on the processing

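CYP2C8 was higher in liver than in pancreas (4.59 to 5.45) and than in the glands (6.78 to 7.32) under every alternative run, and both stayed called under every limma alternative. The exact sign-flip test over animals (a replicate block), whose smallest p is 0.0625, gave an adjusted p of 0.0893 for liver against pancreas (5.28), and likewise for submandibular gland (-2.26), parotid (-1.65) and sublingual gland (-1.37) against pancreas. Without the replicate block, limma gave -1.65 for parotid (adjusted p = 0.0903) and -1.37 for sublingual gland (0.0945), and an exact permutation of tissue labels, also without it, gave adjusted p of 0.0529 and 0.068 for these 2. The same permutation gave adjusted p of 0.0198 for liver against pancreas and 0.0317 for submandibular gland against pancreas. The block changed no other limma call of CYP2C8, and without it 4 haem synthesis genes in place of 5 and 9 regulators in place of 10 were called higher in liver than in pancreas. Over all genes, 2372 in place of 2623 were called there in either direction. With only the compared tissues fitted, the adjusted p was 0.158 for parotid and 0.0666 for sublingual gland. Leaving out 1 animal gave -1.81 to -1.48 for parotid, -1.69 to -1.07 for sublingual and -2.57 to -2.06 for submandibular gland against pancreas. Without the 7 libraries set apart, sublingual against pancreas was -0.55 and submandibular against sublingual gland -2.17 and called. In the latter comparison 5881 of 14081 genes were then called, and the median over all genes was -0.97. The parotid against sublingual sign turned to 0.12 with TMM and 0.06 with median-of-ratios scaling, and the cause was not tested. TMM moved the median of all genes for liver against pancreas from 0.44 to 0.02, and the share of called genes higher in liver from 83.7% to 60.5%. Depth is unknown, which limits what values near 1 TPM can show.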
